A study of Mus musculus with 115 samples.

Results

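The genes described here are the mitochondrial ribosomal protein genes, taken as every gene of the expression panel whose symbol begins with Mrpl or Mrps followed by a digit. There are 69 of them among the 23930 amplicons of the panel, of which 43 carry a large subunit symbol (Mrpl) and 26 a small subunit symbol (Mrps). All 69 passed the filter on low counts, so every member was tested.

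The study returned the Ant1 gene (Slc25a4, the heart and muscle form of the carrier that trades mitochondrial ATP for cytosolic ADP) to mouse hearts that lack it. Hearts came from C57BL/6JEiJ mice (WT), from C57BL/6JEiJ ANT1 -/- mice (KO) and from C57BL/6JEiJ ANT1 -/- mice that also carry ND6 P25L, a mutation in the mitochondrial DNA gene for a complex I subunit (KOND6). Every mouse of the compared groups received 2.5e11 vector genomes in the pericardium of either AAV2/9Des-Gfp, here the control vector, or AAV2/9Des-Gfp-mAnt1, here the Ant1 vector, so no group was left without virus or Gfp. The control-vector groups held 4 WT, 3 KO and 3 KOND6 hearts, and the Ant1-vector groups held 3 WT, 4 KO and 3 KOND6 hearts, each heart measured in 2 to 8 amplicon libraries whose counts were summed. A further 2 libraries of heart 80 had labels that disagree and were left out. Tissue was collected 1, 3, 6, 9 or 12 months after injection across the series, but the labels tie no heart to a time, an age or a sex, so these cannot be told apart from the groups.

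Mitochondria keep their own ribosome, which makes the membrane-embedded subunits of the respiratory chain and ATP synthase that mitochondrial DNA encodes. Its ribosomal RNAs are mitochondrial products, whereas all of its proteins are encoded in the nucleus, translated in the cytosol and imported. The large subunit carries the peptidyl transferase centre and the exit tunnel and is held at the inner membrane, and the small subunit binds the mRNA and holds the decoding centre. Some of the proteins have bacterial counterparts and others exist only in mitochondria, and inherited defects in several of them, MRPL3 and MRPL44 among them, cause cardiomyopathy in patients.

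Counts summed per heart ranged from 16827518 to 54779297. Slc25a4 stood at 8464 to 11380 counts per 1000000 reads (CPM) in WT control-vector hearts against 0.331 to 2.03 in KO and 0.219 to 0.851 in KOND6 control-vector hearts. Of the Ant1-vector hearts, KO hearts stood at 174 to 241 CPM, KOND6 hearts 5 and 37 at 66.7 and 55.6 CPM, and KOND6 heart 8 at 0.732 CPM, inside the range of the control-vector KOND6 hearts. A further 2 KOND6 hearts, numbered 61 and 91, have labels and title codes that name different vectors, so they formed a group of their own and entered no comparison. Their Slc25a4 stood at 169 and 151 CPM, above every KOND6 heart of either vector group. Control-vector and Ant1-vector libraries of the compared hearts never shared a library table (8 libraries deposited together), so vector and table cannot be told apart. Cardiomyocyte markers were abundant in every group, their 10 genes summing to between 72612 and 91611 CPM.

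Upstream sequences are shown for some of the 12 members that rose in the knockout hearts under both vectors, because motifs of factors with known roles in nuclear control of mitochondrial genes could be searched there. RefSeq promoter windows on GRCm38.p6 were matched for 61 of the 69 members, each covering 250 bases before the transcription start and 50 after it. Of the 12 members 11 had a window, and the 250 bases before the start held a searched motif in 6 of them and none in 5 (Mrpl35, Mrpl41, Mrpl55, Mrps2 and Mrps23). The sequences below were picked after the search: 5 of the 6 with a match (Mrps16 is not shown), and Mrps23 and Mrpl55 as examples without one. They are the 250 bases before the start, read 5′ to 3′ on the gene's strand, for Mrpl43 (chr19:45006443-45006692, minus strand), Mrpl3 (chr9:105053018-105053267, plus strand), Mrpl51 (chr6:125191950-125192199, plus strand), Mrps18a (chr17:46110754-46111003, plus strand), Mrps18b (chr17:35916441-35916690, minus strand), Mrps23 (chr11:88204138-88204387, plus strand) and Mrpl55 (chr11:59202236-59202485, plus strand). Capitals mark letters that match CCGGAAG, a core bound by ETS family factors such as NRF2/GABP, or GCGCATGC, a core of NRF1 sites, on either strand.
Mrpl43: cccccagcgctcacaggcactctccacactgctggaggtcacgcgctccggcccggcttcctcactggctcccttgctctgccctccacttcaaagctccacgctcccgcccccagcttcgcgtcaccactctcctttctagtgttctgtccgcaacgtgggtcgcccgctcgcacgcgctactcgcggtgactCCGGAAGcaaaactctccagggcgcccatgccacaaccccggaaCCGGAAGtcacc
Mrpl3: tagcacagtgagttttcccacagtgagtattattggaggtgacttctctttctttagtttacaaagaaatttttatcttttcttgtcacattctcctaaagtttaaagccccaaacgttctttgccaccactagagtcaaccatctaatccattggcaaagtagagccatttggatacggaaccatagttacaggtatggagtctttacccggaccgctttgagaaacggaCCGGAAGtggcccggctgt
Mrpl51: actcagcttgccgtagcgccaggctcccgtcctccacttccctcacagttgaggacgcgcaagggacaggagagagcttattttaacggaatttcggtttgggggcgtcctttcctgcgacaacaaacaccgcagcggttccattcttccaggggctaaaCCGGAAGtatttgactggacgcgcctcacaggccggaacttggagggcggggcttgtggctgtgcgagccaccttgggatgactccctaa
Mrps18a: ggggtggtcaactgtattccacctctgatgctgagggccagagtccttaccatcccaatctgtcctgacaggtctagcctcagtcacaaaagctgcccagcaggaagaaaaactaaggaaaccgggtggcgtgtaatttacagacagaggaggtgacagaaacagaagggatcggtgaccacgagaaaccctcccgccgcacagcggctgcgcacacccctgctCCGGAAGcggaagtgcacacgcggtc
Mrps18b: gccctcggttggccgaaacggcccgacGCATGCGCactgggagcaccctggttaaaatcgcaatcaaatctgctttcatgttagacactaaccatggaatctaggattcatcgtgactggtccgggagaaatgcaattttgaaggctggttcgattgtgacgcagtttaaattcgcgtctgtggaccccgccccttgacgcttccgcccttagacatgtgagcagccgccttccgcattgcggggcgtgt
Mrps23: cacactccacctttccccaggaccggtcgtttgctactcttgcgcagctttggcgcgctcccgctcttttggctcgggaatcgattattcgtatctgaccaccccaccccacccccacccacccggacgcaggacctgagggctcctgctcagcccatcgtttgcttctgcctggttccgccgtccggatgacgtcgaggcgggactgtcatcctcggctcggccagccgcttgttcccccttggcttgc
Mrpl55: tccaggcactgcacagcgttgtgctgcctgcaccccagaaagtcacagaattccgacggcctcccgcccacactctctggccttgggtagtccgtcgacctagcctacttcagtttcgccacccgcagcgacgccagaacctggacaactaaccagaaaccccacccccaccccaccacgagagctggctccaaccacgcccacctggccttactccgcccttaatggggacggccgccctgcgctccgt

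The Mrpl43 window held CCGGAAG at 2 places, starting 56 and 12 bases before the transcription start. In Mrpl3, Mrpl51 and Mrps18a the same letters began 19, 90 and 26 bases before it. These distances use the RefSeq start. GENCODE begins Mrpl3 at chr9:105053239 and Mrpl51 at chr6:125191801, so the matches of Mrpl3 and Mrpl51 lie inside the gene in that annotation. Mrps18b held the NRF1 core on the reverse strand 223 bases before the start. Within the first 50 transcribed bases, counting the first as 1, Mrps18b held the NRF1 core from position 29 and CCGGAAG from position 44, both on the reverse strand, and Mrps18a held AAGATGGCG, a core of YY1 sites, from position 12. GENCODE begins Mrps18b, on the minus strand, at chr17:35916389, so all of these Mrps18b matches lie before the gene in that annotation. Mrps23, the member with the largest change in KO control-vector hearts, had no match before the start and held CCGGAAG on the reverse strand from position 16 of the transcript.

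Over whole windows and both strands, CCGGAAG occurred in 20 of the 61 matched members (32.8%) against 16.5% of the 11537 tested genes that have a window. GCGCATGC occurred in 7 members (11.5% against 5.11%), and AAGATGGCG in 8 (13.1% against 2.96%). The cyclic AMP response letters TGACGTCA occurred in 2 members (3.28% against 3.14%), and TCAAGGTCA, an estrogen-related receptor core, in 0 members (0.3% of tested genes). In the members no match of one motif overlapped a match of another, but forward and reverse matches of GCGCATGC overlapped each other in Mrpl9, Mrpl32 and Mrpl39. Of the 21 matched members that rose in KO hearts under the control vector 42.9% held CCGGAAG and 52.4% any of the 5 motifs, and of the 40 other matched members 27.5% and 52.5%. The median GC content of the windows was 58.0% in members and 60.7% in tested genes.

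Loss of Ant1 was accompanied by higher mitochondrial ribosomal protein transcripts in the control-vector hearts. In KO against WT hearts 24 of the 69 members rose and none fell (edgeR's quasi-likelihood test with Benjamini-Hochberg adjustment over 15403 genes, threshold 0.05). Of all genes tested, 8.19% were called higher and 6.23% lower. The median change of the members was 0.25 on the log2 scale against -0.03 over all genes tested, and 63 of the 69 had a positive change. In 40 members every KO heart lay above every WT heart, a pattern that 14.0% of all genes showed, and in 0 members every KO heart lay below, as in 12.7% of all genes. The number in each library's title, with the genotype and vector code beside it, was read as the heart. No label says how the hearts were kept or processed, so p-values measure the spread between these hearts only.

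**Figure D1:**
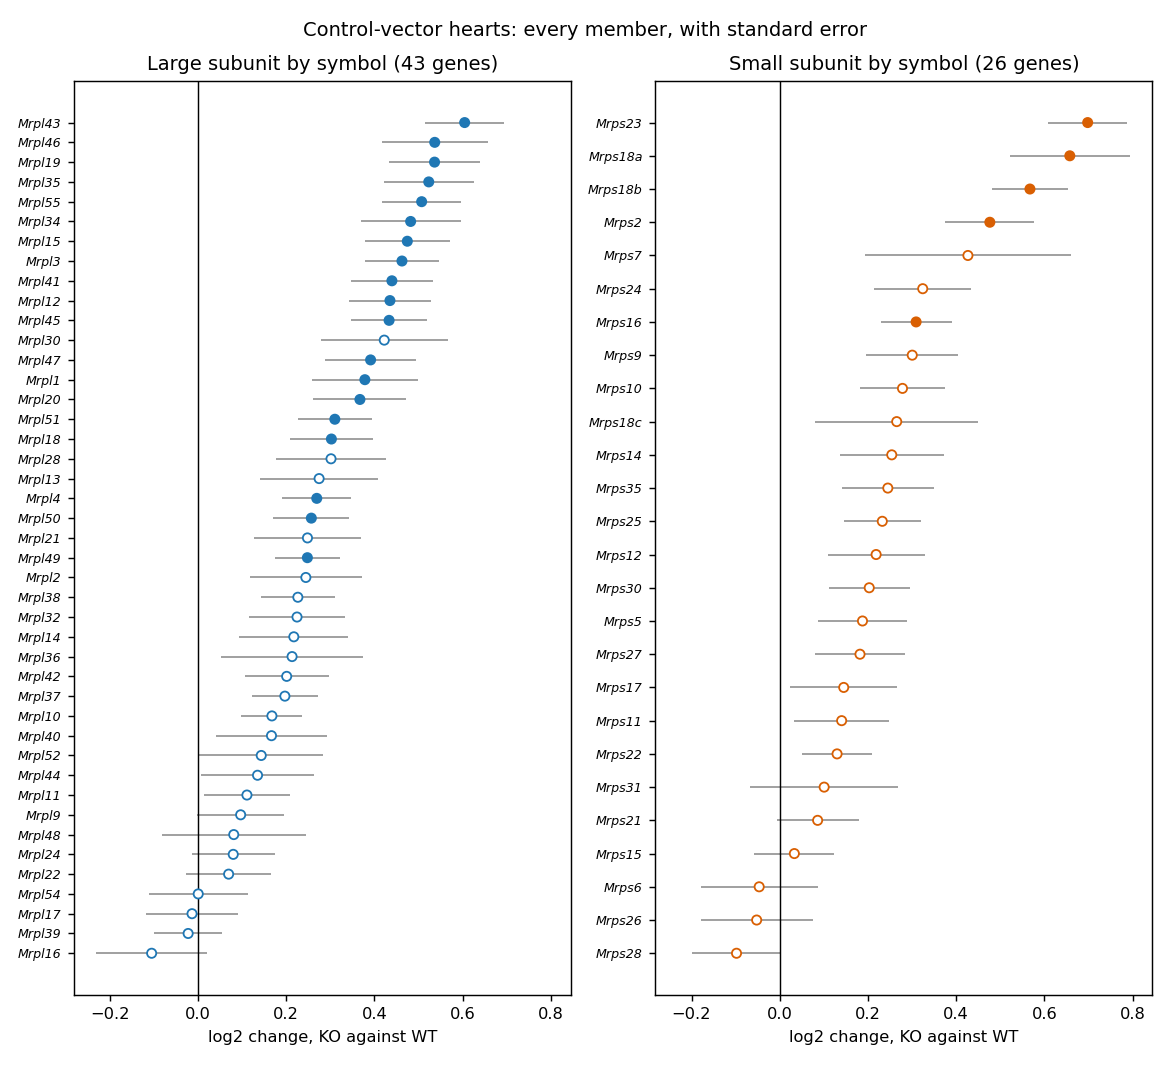
Log2 change of every member in KO against WT control-vector hearts (x axis), with genes of the large subunit on the left and of the small subunit on the right, ordered by change. Bars are standard errors and filled points passed the threshold: 19 of 43 large subunit and 5 of 26 small subunit genes, all above 0.

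The 5 small subunit genes that rose were Mrps23, Mrps18a, Mrps18b, Mrps2 and Mrps16. Mrps23, a mitochondria-specific protein of the small subunit (chr11:88204388-88211507 on GRCm38), measured 609, 598 and 562 CPM in KO hearts and 351, 383, 399.9 and 320.0 CPM in WT hearts. The lowest KO heart lay well above the highest WT heart, and the change of 0.70 (SE 0.090, adjusted p = 2.11e-05) was the largest of all members. Mrps18b is one of several paralogues of a single bacterial protein and sits in the small subunit. It measured 116, 124.6 and 128 CPM in KO against 88.0, 86.0, 89.4 and 68.3 CPM in WT hearts, again without overlap, a log2 change of 0.57 (SE 0.086, adjusted p = 1.20e-04).

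Mrps18a, its paralogue that structures place in the large subunit despite the symbol, was at lower counts, 23.8, 20.8 and 22.7 CPM in KO and 12.8, 12.3, 14.9 and 16.8 CPM in WT hearts. Its KO hearts all lay above the WT hearts, with a log2 change of 0.66 (SE 0.14, adjusted p = 0.00231). The remaining paralogue, Mrps18c, changed by 0.27 with an adjusted p of 0.363 and did not pass. Mrps30, also placed in the large subunit by structure, changed by 0.20 (adjusted p = 0.15). Mrps12, of the decoding centre, and Mrps22 changed by 0.22 (adjusted p = 0.197) and 0.13 (adjusted p = 0.288). Mrps2 and Mrps16, which have bacterial counterparts, rose by 0.48 and 0.31 on the log2 scale.

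Among large subunit genes the change was led by Mrpl43, a mitochondria-specific protein (chr19:45004829-45006442 on GRCm38). Its level was 94.1, 87.0 and 109.7 CPM in KO hearts and 68.0, 67.0, 64.3 and 55.8 CPM in WT hearts, a log2 change of 0.60 (SE 0.089, adjusted p = 9.48e-05). Every KO heart was above every WT heart, and the highest KO value came from the heart numbered 38. Mrpl55, which has a bacterial counterpart, measured 195, 193 and 206 CPM against 141.1, 143, 145 and 128 CPM and rose by 0.51 (SE 0.089, adjusted p = 5.20e-04). Mrpl3, a core protein that reaches toward the peptidyl transferase centre, measured 144, 159 and 153 CPM against 112, 117.4, 111 and 101.4 CPM and rose by 0.46 (SE 0.085, adjusted p = 7.70e-04). In both genes the WT heart numbered 70 was the lowest of all 7 and no KO heart reached down to the WT range.

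Mrpl19, a large subunit protein with a bacterial counterpart, measured 33.8, 34.2 and 41.3 CPM in KO hearts against 25.6, 25.9, 25.4 and 23.6 CPM in WT hearts, and rose by 0.54 (SE 0.10, adjusted p = 0.00112). Its 4 WT values lay close together, and the KO heart numbered 38 was the highest. Mrpl12, the stalk protein that recruits translation factors, rose by 0.44 (adjusted p = 0.00276). Mrpl45, which lies at the tunnel exit where the ribosome meets the membrane, rose by 0.43 (adjusted p = 0.00168). Mrpl35, Mrpl15 and Mrpl41 rose by 0.52, 0.47 and 0.44 on the log2 scale, and the other large subunit genes that rose were Mrpl1, Mrpl4, Mrpl18, Mrpl20, Mrpl34, Mrpl46, Mrpl47, Mrpl49, Mrpl50 and Mrpl51. Mrpl44, whose human counterpart is a cardiomyopathy gene, changed by 0.14 with an adjusted p of 0.529, at 51.7, 50.3 and 51.1 CPM in KO and 53.3, 47.0, 49.4 and 36.3 CPM in WT hearts, which overlapped.

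**Figure D2:**
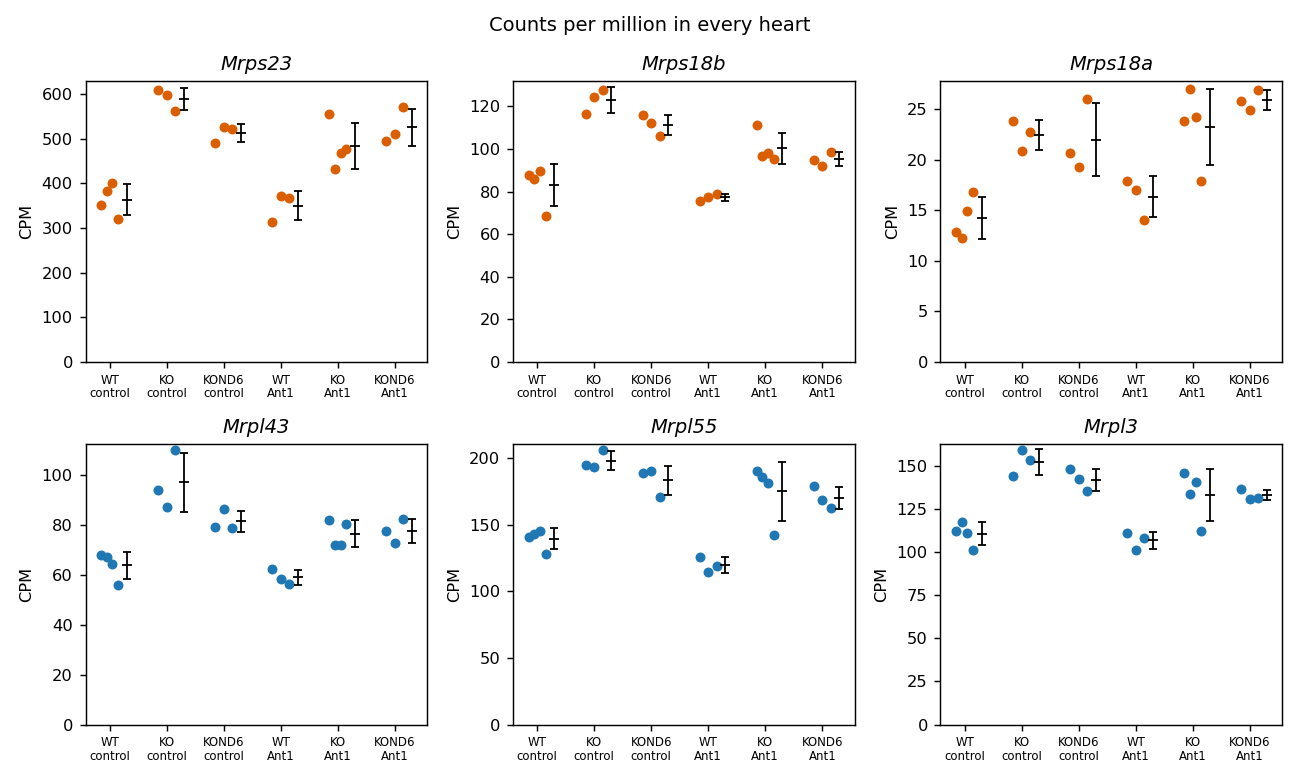
CPM (y axis, from 0) of 6 members in every heart of the 6 groups, 1 point per heart, with the group mean and SD in black beside the points. Mrps23 stayed between 314 and 399.9 CPM in all 7 WT hearts and between 432 and 609 CPM in all 13 KO and KOND6 hearts.

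The calls in KO control-vector hearts were also counted by position in the ribosome, to be read against the 8.19% of all genes called higher, and differences between positions were not tested. Of genes with a bacterial counterpart, 12 of 27 large subunit and 2 of 16 small subunit members rose, and of mitochondria-specific genes 8 of 18 large subunit (counting Mrps18a and Mrps30 there) and 2 of 8 small subunit members rose. Of the stalk 1 of 4 members rose, of the central protuberance 2 of 6 (Mrpl18 and Mrpl46, in a list that includes Ict1, which is no member by symbol), and of the exit tunnel 2 of 7 (Mrpl45 and Mrpl47). The small subunit head had 0 of 7 called although all 7 changes were positive, with a median of 0.28 on the log2 scale. Median changes of the large and small subunits by symbol were 0.25 and 0.23.

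Library tables moved with the genotype in the control-vector hearts. The KO heart numbered 35 shares its tables with WT hearts 23, 24 and 25, whereas KO hearts 36 and 38 and WT heart 70 do not share any table across that comparison. Within the shared tables the median member change was 0.15, smaller than the 0.25 over all hearts, and 52 of 69 members were positive against 47.9% of all genes. Mrps23 and Mrpl43 changed there by 0.69 and 0.50. With the table as a covariate, in a fit of single libraries rather than hearts, 26 members rose, against 10.2% of all genes in that fit.

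The fibroblast markers moved with the same contrast. The 8 genes on that list summed to 1786 to 2210 CPM in KO and 2682 to 2812 CPM in WT control-vector hearts, 4 of the 8 fell, and none was at 0 in any heart. The 10 cardiomyocyte markers summed to 82346 to 86554 CPM against 72612 to 85798 CPM, with 0 called. The 5 macrophage markers tested summed to 106.4 to 132.97 CPM in KO and 123 to 156 CPM in WT hearts, and the 3 adipocyte markers to 18.2 to 21.8 CPM and 15.2 to 109.6 CPM, with 0 called on either list. Of 6 endothelial markers 1 rose, at 485 to 489.5 CPM against 465 to 517 CPM. In these bulk samples fewer cells of a type and less RNA per cell cannot be told apart, and the part of cell mixture in the member changes was not tested.

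Members were also higher in the hearts that carry ND6 P25L beside the Ant1 loss. In KOND6 against WT control-vector hearts 10 members rose and none fell, against 6.71% of all genes called higher and 5.97% lower. Their median change over all 69 was 0.10 against -0.01 over all genes, and 57 members were positive. In 22 members every KOND6 heart lay above every WT heart, against 13.8% of all genes, and in 1 every one lay below, against 12.5%. Both comparisons use the same 4 WT hearts, so each is given by its own values only. Fibroblast markers summed to 2085 to 2257 CPM in the KOND6 hearts, with 3 of 8 fallen, and macrophage markers to 86.0 to 107.1 CPM, with 2 of 5 fallen. Of the 10 cardiomyocyte markers 1 rose, at 83221 to 90210 CPM, and the part of these markers was not tested.

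Mrps23 again led by adjusted p, at 489.6, 527 and 521 CPM in KOND6 hearts, all above the WT range given before, with a log2 change of 0.50 (SE 0.090, adjusted p = 0.00101). Mrps18b measured 116, 112 and 106 CPM and Mrps18a 20.6, 19.3 and 26.01 CPM, and they rose by 0.42 (adjusted p = 0.00244) and 0.63 (adjusted p = 0.00417). Neither overlapped the WT hearts. Mrpl41, a mitochondria-specific large subunit protein, measured 68.4, 62.6 and 75.6 CPM against 51.2, 57.8, 53.6 and 44.0 CPM in WT hearts and rose by 0.42 (adjusted p = 0.00499). Its call was lost without the KOND6 heart numbered 22 (adjusted p = 0.0508).

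Mrpl55 at 189.2, 190.1 and 171 CPM and Mrpl3 at 148, 142 and 135 CPM rose by 0.40 (adjusted p = 0.00553) and 0.36 (adjusted p = 0.0074) over the WT hearts. In both, all 3 KOND6 hearts exceeded all 4 WT hearts. Mrpl43, Mrpl35, Mrpl38 and Mrps10 completed the 10, with log2 changes of 0.35, 0.36, 0.29 and 0.31. Mrpl38 belongs to the central protuberance and Mrps10 to the small subunit head. Within shared tables, where 1 KOND6 heart (22) could be set against 1 WT heart (70), the median member change was 0.22, and heart 70 was the lowest WT heart in each of the 10 members except Mrps18a and Mrpl35. The calls of 5 of the 10 held in all 13 alternatives run and those of the rest did not. Mrpl43 lost its call without KOND6 heart 21, and Mrpl35 without KOND6 heart 20, 21 or 22 or WT heart 23 or 24. Mrpl38 lost it without KOND6 heart 20 or 22, without WT heart 70, without the low-count filter and with the library table as covariate. Mrps10 lost it without KOND6 heart 20 or 21, without WT heart 70 (a change of 0.20), without the filter, in the fit of only these groups and with hearts 61 and 91 counted as control vector.

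Between the mutant genotypes under the control vector no member was called. KOND6 against KO hearts gave 0 of 69 by edgeR, against 1.06% of all genes. The members' median was -0.12, and 13 members were positive. The lowest p belonged to Mrpl15, at 82.7, 76.0 and 74.8 CPM in KOND6 and 90.5, 109.2 and 107 CPM in KO hearts, a change of -0.39 (SE 0.10, adjusted p = 0.0676). Its groups did not overlap, and in 27 members every KOND6 heart lay below every KO heart, against 13.9% of all genes. Other fits called members, all of them lower in KOND6. DESeq2 called 5, against 2.05% of all genes lower in that fit, and the fit of only these groups called 5, against 3.19%. With hearts 61 and 91 counted as control vector 9 were called, against 2.53%, and with the table as a covariate 10, against 6.98%. That covariate fit used single libraries and called 12.6% of all genes in either direction, against 1.06% in the fit per heart. Hearts 61 and 91 both had more Slc25a4 than any heart of the control-vector KOND6 group.

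The genotype contrast could be read again in the Ant1-vector hearts, which are other hearts in other library tables. In KO against WT hearts under the Ant1 vector 14 members rose and none fell, against 5.37% of all genes called higher and 4.53% lower. Their median change was 0.15 against 0.01 over all genes, and 55 members were positive. In 18 members every KO heart lay above every WT heart, against 10.3% of all genes, and in 1 every one lay below, against 9.61%. The count of members that rose fell to 5 without the WT heart numbered 83 (2.81% of all genes higher in that fit), to 8 without WT heart 81 (3.68%), to 6 in the fit of only these groups (3.65%) and to 7 with the library table as covariate (6.28%). Between KO heart 20 and the 3 WT hearts, which share tables, the median member change was 0.12. Fibroblast markers summed to 2060.5 to 2456 CPM in these KO and 2422 to 2516 CPM in the WT hearts, with 1 of 8 fallen. Macrophage markers summed to 95.4 to 123.9 CPM against 129.3 to 166.7 CPM, without overlap and with 1 of 5 fallen. Cardiomyocyte markers summed to 81744 to 86400 CPM against 74575 to 81347 CPM, also without overlap, with 1 of 10 risen and 1 fallen. The part of these markers was not tested.

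Mrpl55 measured 191, 186, 181.1 and 143 CPM in Ant1-vector KO hearts and 126, 114 and 119 CPM in WT hearts, a log2 change of 0.55 (SE 0.091, adjusted p = 4.91e-04). The KO heart numbered 27, whose 8 libraries fill tables shared with KOND6 heart 37 only, was the lowest KO heart but still above every WT heart. Mrps23 measured 555, 432, 469 and 476 CPM against 314, 371 and 366 CPM, without overlap, and rose by 0.46 (SE 0.092, adjusted p = 0.00247). Mrpl41 measured 70.7, 81.0, 72.8 and 76.8 CPM against 56.5, 51.8 and 57.5 CPM and rose by 0.45 (SE 0.094, adjusted p = 0.00399).

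Mrps18b measured 111, 96.7, 98.3 and 95.4 CPM against 75.7, 77.4 and 78.7 CPM, the WT hearts lying within a few CPM of each other, and rose by 0.38 (adjusted p = 0.00819). Mrpl10, the protein at the base of the stalk, measured 88.3, 93.6, 93.3 and 97.7 CPM against 79.4, 77.7 and 71.1 CPM and rose by 0.29 (adjusted p = 0.0103). Mrpl38 measured 81.4, 74.6, 72.0 and 89.6 CPM against 59.9, 64.0 and 62.3 CPM and rose by 0.36 (adjusted p = 0.0105). None of these overlapped between the groups. The other 8 were Mrpl43, Mrpl51, Mrps2, Mrpl3, Mrps18a, Mrpl4, Mrps16 and Mrpl35, with log2 changes from 0.27 (Mrpl4) to 0.51 (Mrps18a), and of them Mrpl35 had KO heart 27 inside the WT range. Of the 12 with the smallest adjusted p, Mrpl55, Mrps23 and Mrps18b kept their calls in all 14 alternatives run. Without WT heart 83, 7 of the 12 lost the call (Mrpl3, Mrpl4, Mrpl10, Mrpl43, Mrpl51, Mrps2 and Mrps18a). With the library table as covariate 6 did (Mrpl4, Mrpl10, Mrpl38, Mrpl41, Mrpl51 and Mrps2), with changes of 0.21 for Mrpl51 and 0.22 for Mrps2.

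In KOND6 against WT hearts under the Ant1 vector 20 members rose and 1 fell, against 10.8% of all genes called higher and 8.71% lower. The median member change was 0.12 against -0.002 over all genes, and 51 members were positive. In 24 members every KOND6 heart lay above every WT heart, against 17.7% of all genes, and in 4 every one lay below, against 16.3%. Without KOND6 heart 8, which had almost no Slc25a4, 18 members rose, against 8.64% of all genes in that fit. With the library table as covariate 6 rose, against 7.84% of all genes, which is near the background. Both Ant1-vector comparisons use the same 3 WT hearts.

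Cell-type markers moved with this contrast as well. Endothelial markers summed to 666 to 723 CPM in KOND6 and 529 to 597 CPM in WT hearts, with 3 of 6 risen and 1 fallen, and atrial markers to 1277 to 4676 CPM against 4935 to 5477 CPM, with 2 of 5 fallen. Fibroblast markers summed to 2019 to 2404 CPM against 2422 to 2516 CPM, with 2 of 8 risen and 1 fallen. None of these 3 lists overlapped between the groups. Cardiomyocyte markers, at 80568 to 91611 CPM against 74575 to 81347 CPM, had 2 of 10 risen and 2 fallen, of 5 macrophage markers 1 fell and of 4 mural markers 1 rose. Their part in the member changes was not tested.

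Mrps23 measured 495, 510.0 and 572 CPM in Ant1-vector KOND6 hearts and rose by 0.59 (SE 0.097, adjusted p = 3.06e-04) over the WT values above. Mrpl55 at 179, 168 and 163 CPM and Mrpl10 at 98.8, 93.9 and 102 CPM rose by 0.51 (adjusted p = 9.29e-04) and 0.37 (adjusted p = 0.00159). In all of these the KOND6 hearts lay above every WT heart. Mrpl45 measured 74.3, 76.7 and 86.3 CPM against 57.0, 60.5 and 56.9 CPM and rose by 0.45 (adjusted p = 0.00213), and Mrpl35 measured 51.2, 52.8 and 43.2 CPM against 34.5, 34.7 and 33.6 CPM and rose by 0.52 (adjusted p = 0.0024).

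Mrpl21, called here but in no other comparison, measured 42.8, 38.9 and 37.4 CPM against 29.1, 23.9 and 26.5 CPM and rose by 0.59 (adjusted p = 0.00333). With the library table as covariate its change was 0.29 and was not called. Mrpl41, Mrps18a, Mrpl51, Mrpl38, Mrps16 and Mrpl43 rose by 0.47, 0.67, 0.41, 0.39, 0.36 and 0.39 on the log2 scale. Of the 12 that rose with the smallest adjusted p, Mrps23, Mrpl55, Mrps18a and Mrpl43 kept their calls in all 15 alternatives run. Mrpl10, Mrpl21, Mrpl35, Mrpl38, Mrpl41, Mrpl45, Mrpl51 and Mrps16 lost theirs with the library table as covariate only, with changes of 0.31 for Mrpl41 and 0.23 for Mrpl51. The other members that rose were Mrpl39, Mrpl37, Mrpl4, Mrpl3, Mrps18b, Mrps2, Mrpl12 and Mrpl11. Of the 4 stalk members, 3 (Mrpl10, Mrpl11 and Mrpl12) rose. The member that fell was Mrps28, a small subunit protein with a bacterial counterpart, at 73.1, 70.0 and 58.1 CPM against 90.0, 80.4 and 83.7 CPM, a log2 change of -0.34 (SE 0.11, adjusted p = 0.0317). Its KOND6 hearts lay below all WT hearts, and the call was lost without KOND6 heart 37, without WT heart 80 or 83, in the fit of only these groups and with the library table as covariate.

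KOND6 and KO hearts under the Ant1 vector gave 0 called members by edgeR, against 1.66% of all genes. The median member change was -0.004. DESeq2 called 1 member, against 4.45% of all genes in that fit, and with the table as a covariate 6 were called, against 11.8%, both below the background.

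The KO contrasts under the control and the Ant1 vector share no heart, so their calls can be set side by side. The 24 and 14 members that rose had 12 in common, which is 50% of the first list and 85.7% of the second. Over all genes 464 rose in both, 36.8% and 56.1% of the respective lists. The shared members were Mrpl3, Mrpl4, Mrpl35, Mrpl41, Mrpl43, Mrpl51, Mrpl55, Mrps2, Mrps16, Mrps18a, Mrps18b and Mrps23, so all 5 small subunit genes that rose under one vector rose under the other. Across the 69 genes, which are not independent replicates, the log2 changes correlated with Pearson's r of 0.64, against 0.19 across all genes tested. Members varied less between hearts of a group than all genes (median SD 0.135 against 0.203). The part of this in the shared calls and the correlation was not tested.

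For KOND6 against WT, the 10 and 20 members that rose shared 9, which is 90.0% and 45.0% of the lists, against 64.2% and 40.0% over all genes. Mrps10 was the member not shared. The correlation across members was 0.75, against 0.39 over all genes, and the part of the lower spread of members was not tested here either.

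**Figure D3:**
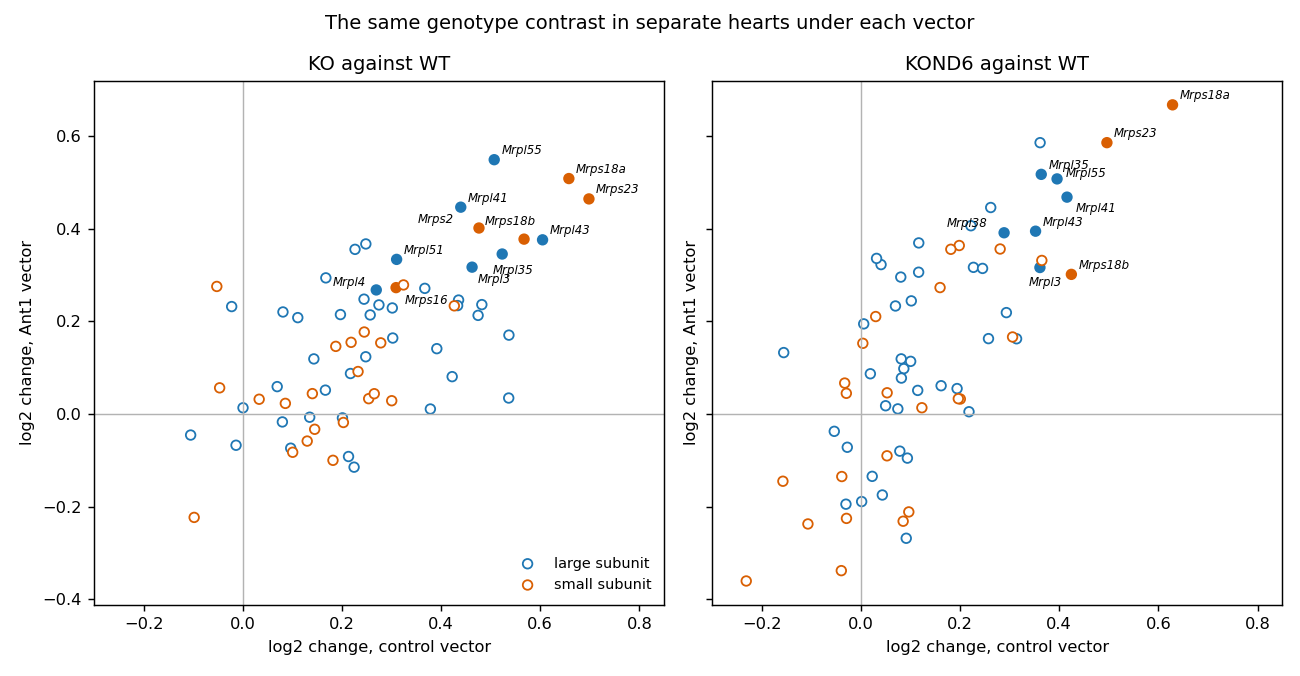
Log2 change of each member against the WT group under the control vector (x axis) and under the Ant1 vector (y axis), for KO (left) and KOND6 (right). Filled and named points rose in both, 12 in KO and 9 in KOND6, and 52 of the 69 members were positive on both axes in KO.

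The Ant1 vector was compared with the control vector within each genotype. In WT hearts no member was called by edgeR, against 0.117% of all genes, and 0 were called by DESeq2, against 1.04% of all genes. The median member change was -0.07. The lowest p was that of Mrpl10, at 79.4, 77.7 and 71.1 CPM under the Ant1 vector and 91.9, 89.0, 89.9 and 83.3 CPM under the control vector, a change of -0.22 (SE 0.070, adjusted p = 0.222).

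In KO hearts 10 members fell under the Ant1 vector and none rose, against 3.27% of all genes called lower and 2.19% higher. The median member change was -0.17 against 0.01 over all genes, and 13 members were positive. This count rested on few hearts: it was 2 without KO control-vector heart 36 (1.03% of all genes lower in that fit), 2 without heart 38 (1.06%) and 0 in the fit of only these groups (0.928%), while DESeq2 called 16 (6.65%). Since every control-vector library was made in other tables than the Ant1-vector libraries, the vector and the table cannot be told apart in these values. Endothelial markers summed to 581 to 625 CPM under the Ant1 vector and 485 to 489.5 CPM under the control vector, without overlap and with 1 of 6 risen. Of the fibroblast markers, at 2060.5 to 2456 CPM against 1786 to 2210 CPM, 1 of 8 rose, and of the cardiomyocyte markers, at 81744 to 86400 CPM against 82346 to 86554 CPM, 1 of 10 rose and 1 fell. The part of these markers was not tested.

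Mrps27, a mitochondria-specific protein of the small subunit, measured 61.4, 71.9, 62.8 and 58.6 CPM in Ant1-vector and 75.3, 103 and 86.8 CPM in control-vector KO hearts, a change of -0.47 (SE 0.10, adjusted p = 0.0126). The groups did not overlap, and the control-vector heart numbered 36 was the highest. Mrpl19 measured 27.5, 29.7, 25.9 and 22.5 CPM under the Ant1 vector against the control-vector values above, a change of -0.47 (SE 0.10, adjusted p = 0.0132). Its Ant1-vector KO hearts overlapped the WT hearts of either vector.

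Mrpl34, a large subunit protein with a bacterial counterpart, measured 178, 204.6, 182 and 148 CPM against 220.0, 269 and 267 CPM, a change of -0.50 (adjusted p = 0.0152). Mrps9, of the small subunit head, measured 105, 129, 125.3 and 110.0 CPM against 146, 180.8 and 156.7 CPM, a change of -0.46 (adjusted p = 0.0152). Mrps22, a mitochondria-specific small subunit protein, measured 50.5, 41.8, 48.9 and 45.2 CPM against 57.0, 60.01 and 59.0 CPM, a change of -0.33 (adjusted p = 0.0188). In these, as in Mrpl49 at -0.32 (adjusted p = 0.0151), all 4 Ant1-vector hearts lay below all 3 control-vector hearts. The other members that fell were Mrpl47, Mrpl43, Mrpl12 and Mrps18b, with log2 changes from -0.40 to -0.29.

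In KOND6 hearts Mrps12, the protein of the decoding centre, fell and no member rose, against 0.779% of all genes called lower and 1.75% higher. Mrps12 measured 72.9, 69.8 and 75.4 CPM under the Ant1 vector and 110.0, 100.9 and 96.1 CPM under the control vector, a change of -0.49 (SE 0.12, adjusted p = 0.03). The groups did not overlap, but the call was lost without control-vector heart 20 or 21, without Ant1-vector heart 5 or 8 and with hearts 61 and 91 in either group, and DESeq2 called 3 members lower and 1 higher, against 2.66% and 3.53% of all genes. The median member change was -0.07. Endothelial markers summed to 666 to 723 CPM against 504 to 564.5 CPM, without overlap and with 2 of 6 risen, and their part was not tested.

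Whether the vector change differed between mutant and WT hearts was tested by an interaction term. For KO and WT 0 members were called by edgeR, against 0.5% of all genes, 0 by DESeq2 (2.46% of all genes) and 1 with the library table as covariate (3.23%). Mrpl19 had the lowest p, with an interaction of -0.50 (SE 0.15, adjusted p = 0.111). For KOND6 and WT 0 were called by edgeR, against 0.273% of all genes, and 0 by DESeq2 (1.05%). The falls in KO hearts were thus not shown to differ from the vector change in WT hearts.

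Large and small subunit genes were also followed as a mean per heart. The mean log2 difference of the 43 large subunit genes from the WT control-vector mean was 0.20 to 0.31 in the 3 KO control-vector hearts, and that of the 26 small subunit genes was 0.15 to 0.29. KOND6 control-vector hearts stood at 0.14 to 0.15 and 0.08 to 0.17, and WT control-vector hearts at -0.10 to 0.07 and -0.08 to 0.05. Under the Ant1 vector the WT hearts spread from -0.18 to 0.04 for the large subunit, KO hearts from -0.01 to 0.21 and KOND6 hearts from 0.003 to 0.19. There the genotypes overlapped in these means, whereas under the control vector the KO and KOND6 hearts all exceeded the WT hearts.

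**Figure D4:**
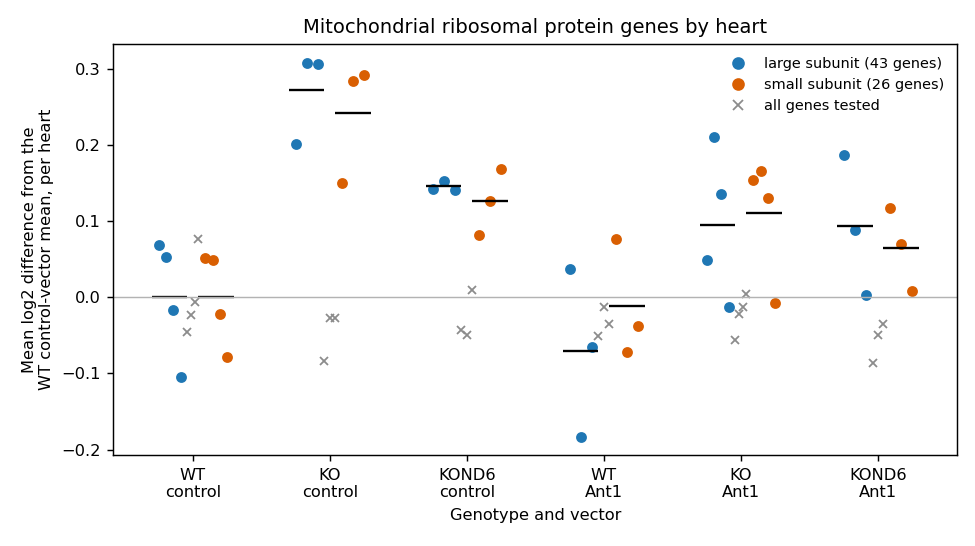
Mean log2 difference from the WT control-vector mean (y axis) over large subunit, small subunit and all tested genes, 1 point per heart, by genotype and vector (x axis), with black lines at the means of the 2 subunits. The group means of both subunits were highest in KO control-vector hearts, and no group separates one subunit from the other.

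All 69 amplicons together took 8085 to 8576 CPM in KO, 7455 to 7788 in KOND6 and 6177 to 7165 in WT control-vector hearts. The reads of small subunit amplicons per read of large subunit amplicons were 0.403 ± 0.00331 (SD, n = 3) in KO, 0.394 ± 0.00758 (SD, n = 3) in KOND6 and 0.390 ± 0.00917 (SD, n = 4) in WT control-vector hearts. Ant1-vector hearts gave 0.398 ± 0.0131 (SD, n = 3) in WT, 0.396 ± 0.0227 (SD, n = 4) in KO and 0.387 ± 0.0131 (SD, n = 3) in KOND6. Under the control vector the 3 KO hearts, at 0.39988 to 0.406, all lay above the 4 WT hearts, at 0.382 to 0.398, while the KOND6 hearts, at 0.388 to 0.402, overlapped both. The KO and WT means differed by 0.0129 (two-sided exact permutation test over hearts, p = 0.0571, the smallest this design allows, and 0.229 adjusted over the 4 genotype comparisons of this ratio with WT). The ranges of the genotypes overlapped under the Ant1 vector, where the exact permutation p was 0.914 for KO and 0.4 for KOND6 against WT. The smallest p possible there was 0.0571 for KO and 0.1 for KOND6. With so few hearts no test of this ratio could pass 0.05, so they cannot decide whether it differed. Under the Ant1 vector the median change of small subunit genes was lower than that of large subunit genes, 0.07 against 0.21 in KO and 0.05 against 0.16 in KOND6, but with the library table as covariate the small minus large difference was -0.00325 and -0.0323. Counting Mrps18a and Mrps30 as large subunit genes gave 20 of 45 large and 4 of 24 small subunit members that rose in KO control-vector hearts.

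The median SD of log2 values between hearts of a group was 0.135 for members and 0.203 over all genes tested, and between libraries of the same heart it was 0.2046 and 0.286. Amplicon counts differ in efficiency between genes, so levels are not compared between members. The most thinly read member was Mrps7, with a mean of 2.86 CPM and 54 reads in its lowest heart.

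Other genes of mitochondrial translation were read from lists beside the members, whose counts stand against 8.19% of all genes called higher in KO and 6.71% in KOND6 control-vector hearts. Of the mitoribosome proteins with other symbols, 6 were tested, and Ptcd3, a small subunit protein that binds RNA, rose in KO control-vector hearts by 0.41 (adjusted p = 0.00257) and in KOND6 control-vector hearts by 0.53 (adjusted p = 2.85e-04). Under the Ant1 vector Ptcd3 rose in KOND6 hearts by 0.54, and in KO hearts its change of 0.20 did not pass (adjusted p = 0.143). Oxa1l, the insertase that receives nascent chains at the inner membrane, rose under the Ant1 vector in KO (0.31) and KOND6 (0.40) hearts. Dap3, a GTP-binding small subunit protein, fell in KOND6 Ant1-vector hearts by 0.25, and Chchd1, Aurkaip1 and Ict1 were called in none of these comparisons.

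The list kept for assembly factors had 10 of 27 genes called higher and none lower in KO control-vector hearts, with a median change of 0.26. A place on this list does not show that a gene acts in assembly. Called genes on it included Lace1 (0.45), Nsun4, an rRNA methyltransferase (0.35), and Mterf4, its partner (0.39). Another was Yars2 (0.39), the mitochondrial tyrosyl-tRNA synthetase, which is counted again among the synthetases below. Of the translation factors 5 of 17 rose, among them Taco1, an activator of cytochrome oxidase subunit translation (0.47), Tsfm, an elongation factor (0.47), and Gtpbp3, a tRNA-modifying enzyme (0.46). Of the mitochondrial tRNA synthetases 6 of 16 rose, Aars2 (0.45), Fars2 (0.41) and Rars2 (0.59) with the smallest adjusted p, and Wars2 fell by 0.35. Of 14 genes for mitochondrial transcription and RNA processing 6 rose, including the RNA polymerase Polrmt (0.64), Supv3l1 (0.63), Tefm (0.49) and Tfam (0.43). KO against WT hearts under the Ant1 vector again had Polrmt (0.68), Supv3l1 (0.44), Aars2 (0.43) and Fars2 (0.53) called higher. Not called there were Tefm (-0.09), Tfam (-0.06), Taco1 (0.08), Tsfm (-0.03), Gtpbp3 (0.25), Rars2 (0.24), Yars2 (0.10) and Wars2 (0.04). The edgeR interaction of vector with KO called Tefm at -0.58 (adjusted p = 0.0396).

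In KOND6 against WT control-vector hearts 1 of 27 genes on the assembly factor list and 2 of 17 translation factors rose. Of the synthetases 5 of 16 rose, and of the transcription and RNA processing genes 5 of 14. None of these lists had a gene that fell. Of the 22 cytosolic ribosomal protein genes tested, 1 rose and 1 fell in KO control-vector hearts, with a median of -0.14 against 0.25 for the mitochondrial ones. In KOND6 control-vector hearts 1 rose and 4 fell, with a median of -0.21. Complex I subunit genes, whose mitochondrially encoded partners the mitoribosome makes, had 3 of 33 called higher in KO control-vector hearts (9.09%, near the 8.19% of all genes), with a median of 0.19.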

How the data were processed

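Bulk heart RNA was measured with a targeted amplicon panel, 1 amplicon per gene. The authors deposited raw read counts per amplicon in 14 tables of 8 libraries, aligned to mm10 per the submitters' processing notes, and no source used here names the aligner. The 3 single-nucleus samples of the series were not used here.

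Counts were summed over the 2 to 8 libraries of each heart, giving 16827518 to 54779297 reads per heart. A heart was identified by the number, genotype and vector code in the library title. Genes passing edgeR's filterByExpr (15403) were fitted over 7 groups with TMM scaling and tested with edgeR 4.0.16 (R 4.3.3) by the quasi-likelihood test, with Benjamini-Hochberg adjustment over all of them and a threshold of 0.05. CPM values use each heart's total over the genes that passed the filter, scaled by TMM, and log2 values per heart use a prior count of 2. The procedure was tested on simulated counts for KO against WT under the control vector (15125 genes), with changed genes drawn at random. Of 68 genes changed 1.5-fold 36.8% were recovered, and of 66 genes changed 1.25-fold 4.55%, so changes of these sizes were often missed. Members varied less between hearts than all genes tested (median SD 0.135 against 0.203 on the log2 scale) and recovery among members was not measured. Alternatives were RLE scaling, no filter, DESeq2 1.42.0, only the compared groups, each heart left out, hearts 61 and 91 in either vector group, and the library table as covariate at the library level with limma 3.58.1.

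Mitoribosomal protein genes other than the 69 members, such as Mrpl23, Mrpl27, Mrpl33, Mrpl53, Mrps33, Mrps34 and Mrps36, are not analysed here. The naming rule took, per comparison, up to 12 members that rose and 12 that fell by adjusted p. Values per heart were given for 6 of them. It also took Mrpl3, Mrpl12, Mrpl44, Mrps12, Mrps22, Mrps30 and the Mrps18 paralogues. Changes of these preset genes were given for KO against WT under the control vector, and in other comparisons only where they were called. Names beyond the rule complete a count or give the lowest p, and were added after their values were seen. The permutation test of the subunit ratio was added after its values were seen. Members and lists were chosen with earlier results of these data known. Promoter windows and gene positions are from RefSeq and GENCODE on GRCm38, and 8 members had no window (Mrpl4, Mrpl13, Mrpl15, Mrpl19, Mrpl38, Mrpl54, Mrps28 and Mrps35).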

Additional observations from a re-analysis of the deposited data

Results flagged for a closer look

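In the 4 WT control-vector hearts, 4 of the 68 groups of 4 hearts tested had a heart that stood apart from the rest, and chance alone flags about 1 in 20. Heart 70 was low for Mrps10, at 34.2 CPM against 45.6 to 46.9 CPM in the other hearts, for Mrps18b, at 68.3 CPM against 86.0 to 89.4 CPM, and for Mrps30, at 32.7 CPM against 37.8 to 38.8 CPM. Heart 25 was high for Mrpl35, at 35.9 CPM against 32.5 to 32.9 CPM. Heart 70 is the WT control-vector heart whose libraries lie in other tables than those of hearts 23, 24 and 25, and the part of the table in these values was not tested.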

How the results depend on the processing

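Of 163 alternative counts of called members 140 were equal to the reported count or within 1.5 times of it. A reported count of 0 that stayed at 0 was included among these. Of 168 alternative medians 166 moved by less than the spread between hearts (SD within groups 0.0842). The same held for 163 of 174 differences between the small and large subunit medians (SD 0.0442). These spreads are near the size of several of the values judged, so this is a loose measure. Leaving out 1 heart, the median ranged from 0.0986 to 0.220 for KO and from 0.0571 to 0.199 for KOND6 against WT under the Ant1 vector. The fit without heart 8 was counted both as a heart left out and as an alternative of its own. Within shared library tables the median member change was 0.150 in KO and 0.221 in KOND6 against WT hearts under the control vector. With the library table as covariate the calls were 10 for KOND6 against KO under the control vector, 7 for KO and 6 for KOND6 against WT under the Ant1 vector, 6 for KOND6 against KO under the Ant1 vector and 1 for the interaction of vector with KO, and the small minus large median was -0.0911 for KOND6 against WT under the control vector and -0.00325 and -0.0323 for KO and KOND6 against WT under the Ant1 vector. DESeq2 called 5 and 1 members for KOND6 against KO under the control and Ant1 vector, and 16 and 4 for the vector in KO and KOND6 hearts. With only the compared groups the calls were 5 for KOND6 against KO under the control vector, 6 for KO against WT under the Ant1 vector and 0 for the vector in KO hearts. Counting hearts 61 and 91 as control vector gave 9 calls for KOND6 against KO and 0 for the vector in KOND6 hearts, where counting them as Ant1 vector and leaving out heart 8 also gave 0. Without hearts 27 and 37 the small minus large median for the vector in KOND6 hearts was -0.0206. The causes were not tested.

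Leaving out 1 heart at a time, calls ranged from 5 to 16 for KO against WT under the Ant1 vector, from 2 to 10 for the vector in KO hearts and from 0 to 1 for the vector in KOND6 hearts. The small minus large median then ranged from -0.0614 to 0.0306 for KOND6 against WT under the control vector, from -0.139 to -0.0850 and from -0.123 to -0.0232 for KO and KOND6 against WT under the Ant1 vector, from -0.0208 to 0.0644 for the vector in KOND6 hearts and from -0.0785 to 0.0161 for its interaction with KO. No paired analysis was possible because no title number recurs across groups that were compared. Numbers 20, 21 and 22 each occur in a KO Ant1-vector and in a KOND6 control-vector heart, which were read as different hearts.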
